A study of Caenorhabditis elegans with 4 samples.

Results

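The 1258 regions that the authors listed for PQM-1::GFP on the X chromosome of Caenorhabditis elegans are described here, out of 5803 regions in the whole list. They are all the listed regions whose chromosome is X, so the choice used position alone and no measured value. The list compares ChIP DNA with input DNA from the same kind of worm. The ChIP DNA was pulled down with a goat antibody against EGFP (2 libraries), and the input DNA was not (2 libraries). All libraries came from hermaphrodites of strain OP201 at the L3 larval stage, grown at 20 °C on E. coli HB101. The genotype of both groups is unc119(ed3) with the transgene wgIs201, which holds pqm-1 joined to TY1, EGFP and FLAG tags together with a copy of unc119 and was brought in by bombardment. The genotype given in the labels lists no mutation of pqm-1 itself, so untagged protein would not be seen in these data. Chromatin came from whole worms, so binding in more cells and more binding per cell cannot be told apart. The authors reduced the libraries to 1 combined list. No value per library was analysed here, no value below carries a replicate error, and intervals cover counting error only.

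PQM-1 is a transcription factor with C2H2 zinc fingers. In this species it is known from the insulin-like signalling pathway, as is the FOXO factor DAF-16, and from genes of growth, fat storage and stress resistance. It is expressed mainly in the intestine. The X chromosome differs from the autosomes in several ways. Hermaphrodites carry a pair of X chromosomes and lower the output of both through the dosage compensation complex. Genes used mainly in the germline are rare on X, and its gene content and recombination change less between centre and arms than those of the autosomes.

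PQM-1::GFP regions were denser on X than on any autosome. X held 71.0 regions per Mb over 17.7 Mb, whereas the 5 autosomes together held 55.1 per Mb and singly ranged between 36.0 on I and 61.4 on III. The density of X was 1.29 times that of the autosomes together (95% interval 1.21 to 1.37, from the exact Clopper-Pearson interval of the X share). Thus X held 21.7% of the regions in 17.7% of the listed length. The regions covered 3.41% of X, against 1.83% to 2.75% of the single autosomes. The number of regions that the caller tested, 12873, was inferred here from the q-values. For the whole list, 45.1% of this inferred number were listed. How many tested regions lay on X was not analysed here, so the density is of listed regions only. Chromosomes are the units of this comparison and there are 6 of them, so X is set against the range of the autosomes and no test was run. The regions were not set against genes, which vary in number along and between chromosomes.

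The excess on X was larger in the outer parts of the chromosome than in its middle. When each chromosome was divided into 3 equal parts by the midpoints of the regions, the middle part of X held 80.3 regions per Mb, against 73.4 per Mb in the autosome middles together (ratio 1.09, 95% interval 0.988 to 1.21, which includes equal density). The middle of X lay within the range of the single autosomes, which ran from 49.97 per Mb on I to 81.4 per Mb on IV. The outer parts of X together held 66.4 regions per Mb, against 46.0 per Mb in the outer parts of the autosomes (ratio 1.44, 95% interval 1.33 to 1.56). The intervals of these ratios, 0.988 to 1.21 in the middle and 1.33 to 1.56 outside it, did not overlap, though the difference itself was not tested. Counts in windows of 100 kb varied more than counting error allows (variance over mean 2.01 on X, 2.14 to 2.84 on single autosomes). The intervals are therefore too narrow, and their separation does not settle the difference. The right part of X, at 74.2 per Mb, lay above all 10 outer parts of the autosomes, which ran from 24.9 to 59.7 per Mb. The left part, at 58.6 per Mb, lay above 9 of those 10. For regions with a q-value under 1e-10, the density of X over that of the autosomes was 1.14 in the middle (95% interval 0.946 to 1.36) and 1.52 in the outer parts (95% interval 1.31 to 1.77), and these intervals overlapped.

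**Figure D1:**
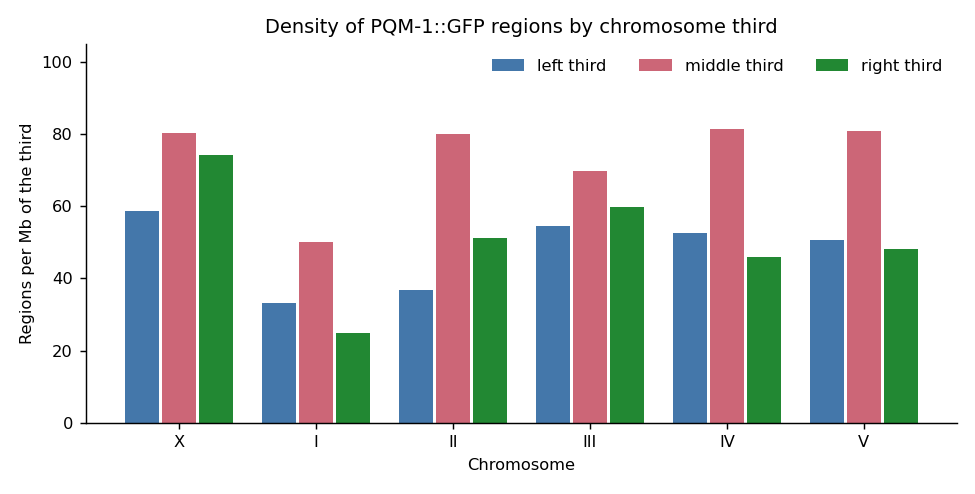
Regions per Mb (vertical axis) in the left, middle and right part of X and of each autosome, cut into 3 parts of equal length; bars are counts over length with no error bars. The middle part of X (80.3 per Mb) stands at the height of the middles of II, IV and V, while its right part (74.2 per Mb) stands above the outer parts of all 5 autosomes.

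Along X itself, 474 regions (37.7%) lay in the middle part, 438 (34.8%) in the right part and 346 (27.5%) in the left part. The middle exceeded the outer parts by a ratio of 1.21 (95% interval 1.08 to 1.36). On the autosomes the same ratio was 1.22 on III and between 1.64 and 1.82 on I, II, IV and V. The intervals of X and III overlapped almost completely, while those of I, II, IV and V lay above that of X. These intervals too cover counting error only and are too narrow. Without the sparse first 2 bins of X, an alternative described below, the ratio of middle to outer parts on X was 1.11.

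The left end of X was sparse. In 18 bins of equal length (0.984 Mb each), the first bin held 39.6 and the second 35.6 regions per Mb, the lowest values of the chromosome. Together these bins held 74 regions in 1.97 Mb. The rest of the left part held 69.1 regions per Mb, close to the right part. The ratio of the right part to the left part was 1.27 (95% interval 1.097 to 1.46), and it was 1.07 when the first 2 bins were left out, an alternative chosen after the data were seen. Without these bins, X held 1.36 times the density of the autosomes, from which no bin was left out. These bins were the lowest of the chromosome. Leaving them out had to raise the left part and the density of X, and to lower the ratio of middle to outer parts. At the opposite end the last 2 bins held 57.9 and 72.1 regions per Mb, and 57.9 was the lowest value of the right part. Of the 18 bins, 15 lay above the mean of the autosome bins, 55.1 ± 21.3 per Mb (SD, n = 82 bins).

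The densest bin of X was the first of the middle part, X 5906224 to 6890593, with 112 regions or 113.8 per Mb. It was followed by X 12796818 to 13781187 in the right part, with 101.6 per Mb, and by X 7874965 to 8859335 in the middle, with 92.4 per Mb. The bins between them fell as low as 55.9 per Mb at X 8859336 to 9843705. High bins thus stood beside average ones within both the middle and the right part, so density did not change smoothly along the chromosome. The middle held 80.3 ± 21.2 regions per Mb (SD, n = 6 bins), the right 74.2 ± 14.5 and the left 58.6 ± 18.7 (SD, n = 6 bins each), so the spread of bins within a part was about as large as the differences between parts.

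**Figure D2:**
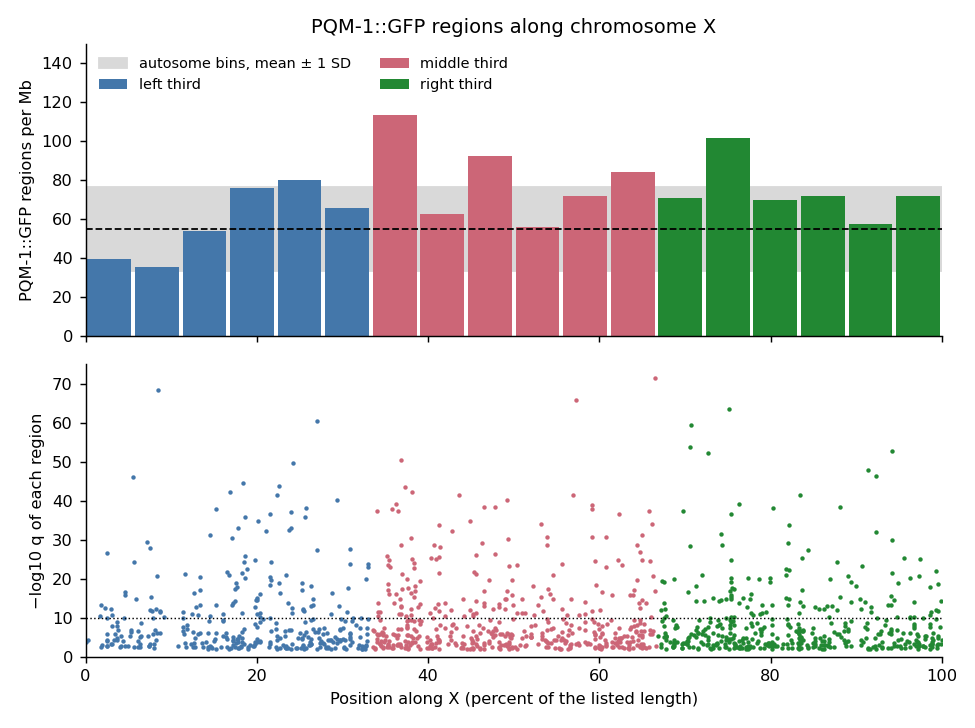
Upper panel, regions per Mb (vertical axis) in 18 equal bins along X, coloured by part, with the autosome bins as a dashed mean and a grey band of 1 SD; lower panel, −log10 q of each of the 1258 regions at its position, with a dotted line at a q-value of 1e-10. The first 2 bins are the lowest (39.6 and 35.6 per Mb), and regions past the dotted line are found in every bin.

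The q-value, the value the authors deposited for each region, had a median of 1.44e-06 on X, against 2.75e-06 on the autosomes. The regions of X with a q-value under 1e-10 numbered 380 (30.2%, 95% interval 27.7% to 32.8%), against 29.3% of the whole list. The share on the single autosomes ranged from 24.3% on I to 32.2% on IV, so X lay within their range. Because X held more regions, it had the highest density of such strong regions, 21.4 per Mb against 8.76 to 19.3 per Mb on the autosomes. Under the stricter limit of 1e-20, X kept 152 regions (12.1%, 95% interval 10.3% to 14.0%), against 10.4% of the whole list and 6.63% to 11.1% on the single autosomes. This was the highest share, but its interval overlapped those of II, III, IV and V.

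X held 22 of the 100 best rows of the list and 225 of the best 1000, close to its 21.7% of all regions. The strongest region of X stood in row 12, and each autosome had a stronger best region. Tag numbers were recovered from the q-values as ChIP tags and control tags scaled by the caller. A single region of X had 10 or more times as many ChIP as scaled control tags (0.0795%, 95% interval 0.00201% to 0.442%), against 0.465% of the whole list. On the autosomes 26 of 4544 regions did (0.572%, 95% interval 0.374% to 0.837%), and the intervals overlapped. Among regions of 100 bp or more, the counts were 1 of 1249 on X and 24 of 4490 on the autosomes, with 0 of 536 on I. The highest ratio of X, 10.6, lay below the highest ratio of every autosome, which ranged from 12.6 on III to 17 on V. Without regions under 100 bp, I fell below X at 7.35.

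**Figure D3:**
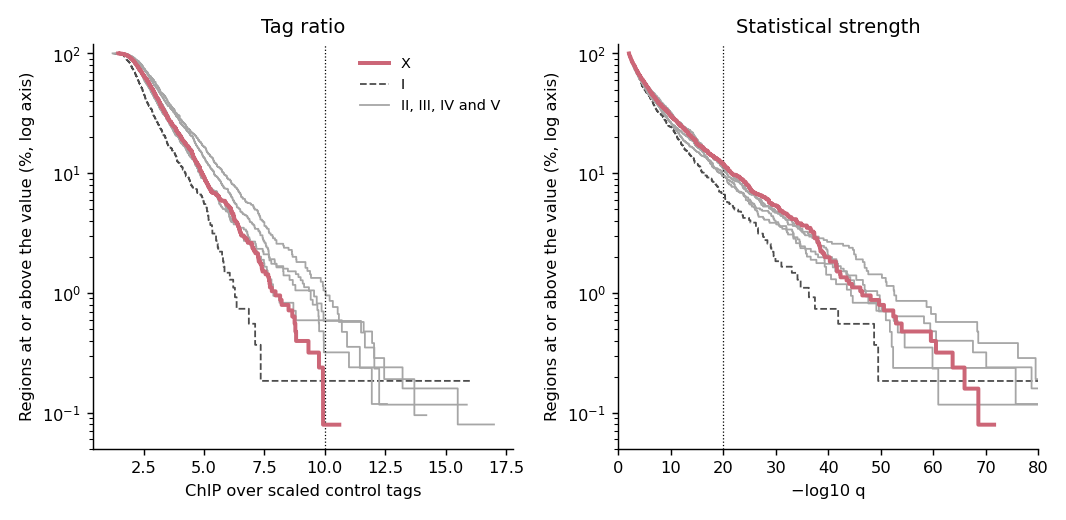
Share of regions (vertical, log axis) at or above a given ratio of ChIP to scaled control tags (left panel) and a given −log10 q (right panel, drawn to 80, so the strongest autosome regions lie beyond it), 1 line per chromosome; dotted lines mark a ratio of 10 and a q-value of 1e-20. X runs among the autosomes over most of the range and ends at a ratio of 10.6, with 12.1% of its regions past the q-value limit.

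In the bulk of the list X was an average chromosome. The tag ratio, ChIP over scaled control, had a median of 2.88 on X (95% interval 2.81 to 2.95), against 2.92 on the autosomes together (95% interval 2.88 to 2.96), with 2.45 on I and 3.17 on IV as the extremes. Ratios of 5 or more belonged to 119 regions of X (9.46%, against 11.3% of the whole list and 5.72% to 16.8% on single autosomes). A ratio under 2 was found in 113 (8.98%, against 8.96% of the whole list). The median region of X held 85 ChIP and 28 scaled control tags, against 82 and 27 on the autosomes. The 5th and 95th percentiles of ChIP tags were 37 and 268 on X, against 34 and 229 on the autosomes together. The 95th percentile ran from 224 to 245 on the single autosomes, so X lay above their range there.

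The scaled control was compared as well, since the caller weighs ChIP tags against it, and its part in the density was not tested. In regions of 300 to 500 bp, X had a median of 70.6 scaled control tags per kb (95% interval 69.1 to 72.5, 586 regions), against 69.2 on the autosomes together (95% interval 68.0 to 70.3, 2209 regions). The single autosomes ran from 61.9 on IV to 85.7 on I. The ChIP tags per kb of the same regions were 223.5 on X and 224.4 on the autosomes. In between stood V with 64.7, III with 70.6 and II with 72.9, so X lay within the autosome range for the control. Within X the control per kb was 70.9 in the left, 70.3 in the middle and 72.3 in the right part, with overlapping intervals, and the median ratio was 2.83, 2.92 and 2.88.

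Regions of X were slightly wide. Their median width was 395.5 bp (95% interval 382 to 409 bp), against 379 bp on the autosomes together (95% interval 374 to 384 bp). Among single autosomes only I was wider, at 410 bp, and the others had medians of 368 to 377 bp. Broad regions of 1 kb or more numbered 69 on X (5.48%, 95% interval 4.29% to 6.89%), against 198 on the autosomes (4.36%, 95% interval 3.78% to 4.99%). Regions under 100 bp numbered 9 on X (0.715%), against 55 on the autosomes (1.21%). The widest region of X spanned 2901 bp, shorter than the widest region of each autosome (3289 bp or more). In classes of equal width the ratios of X and the autosomes were close. The median ratio of X was the lower in every class under 1 kb, with overlapping intervals in each. From 400 to under 600 bp it was 3.19 on X (95% interval 3.03 to 3.41) against 3.35 on the autosomes (95% interval 3.22 to 3.46). At 1 kb or more it was 3.14 on the 69 regions of X against 2.98 on the autosomes, again with overlapping intervals.

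The strongest regions of X were wide. Of the 10 with the smallest q-value, 5 were broad and spanned over 1 kb. The first, X 11791402 to 11793348, was 1947 bp wide and held 565 ChIP and 109 scaled control tags (ratio 5.18, 95% interval 4.22 to 6.42), with a q-value of 2.39e-72. The next, X 1503542 to 1505156, held 516 and 93 tags in 1615 bp (ratio 5.55, 95% interval 4.44 to 6.996). It lay in the sparse left end, with no other listed region for 16.9 kb before and 36.0 kb after it. The remaining broad ones were X 13310565 to 13312032, X 12517874 to 12519376 and X 16676848 to 16678412, with ratios of 6.25, 4.90 and 5.89.

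The other 5 were narrower, at 618 to 852 bp, though still wider than the 75th percentile of X (545 bp). The strongest of these was X 10141639 to 10142490, with 391 ChIP and 46 scaled control tags (ratio 8.50, 95% interval 6.25 to 11.8). It stood 0.200 kb from its neighbour before it and 54.7 kb from the next region after it. No shorter gap was found in the list, and the smallest gaps of the single autosomes were alike, at 200 to 211 bp. X 4793882 to 4794654 held 345 and 37 tags (ratio 9.32, 95% interval 6.63 to 13.5). X 6518403 to 6519052 held 283 and 29 tags (ratio 9.76, 95% interval 6.65 to 14.8) and belonged to a run of 5 closely spaced regions. The last of these, X 12500627 to 12501244 and X 12872011 to 12872769, had ratios of 7.66 and 6.15. Of the 10 strongest regions, 5 lay in the right part, 3 in the middle and 2 in the left, and 6 had a neighbour within 1 kb. X 12500627 to 12501244 and the broad X 12517874 to 12519376 were near neighbours too, with 7.90 kb and 8.06 kb to the region listed between them.

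By ratio, the order was different. The highest, 10.6 (95% interval 6.69 to 17.7), belonged to X 6427100 to 6427564, which held 212 ChIP and 20 scaled control tags over 465 bp. It was followed by X 17256682 to 17257053, with 139 against 14 tags and a ratio of 9.93, and X 16348909 to 16349387, with 258 against 26 tags and a ratio of 9.92. The fourth and the fifth were the regions at 6518403 and 4793882 described above. The intervals of these 5 ratios overlapped widely, so their order is not resolved.

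The 5 widest regions did not have the highest ratios. X 3114727 to 3117627, at 2901 bp, held 487 ChIP and 237 scaled control tags (ratio 2.05, 95% interval 1.76 to 2.41). X 6252035 to 6254622 had a ratio of 2.13 over 2588 bp, and X 16929373 to 16931787 one of 2.31 over 2415 bp. X 8077798 to 8079856 and X 2970780 to 2972826 had ratios of 3.34 and 2.47. The first 3 ratios lay below the median of X, with intervals whose upper ends were at most 2.72, and that of X 8077798 to 8079856 lay above it. All 69 regions of 1 kb or more had a median ratio of 3.14. Over all 1258 regions of X, width had a Spearman's rho of 0.66 with −log10 q and of 0.17 with the ratio. Both are descriptions, since regions are not independent and more tags lower the q-value.

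At the weak end, the last 2 rows of the whole list were both on X. X 15279141 to 15279532 and X 13306839 to 13307092 each held 55 ChIP and 30 scaled control tags (ratio 1.83, 95% interval 1.15 to 2.96), with a q-value of 0.0098. X 16354226 to 16354498, the next weakest of X, held 51 against 27 tags. The narrowest region of X was 2 bp wide, at 12573581 to 12573582, with 17 against 3 tags, and its ratio of 5.67 had a 95% interval of 1.64 to 30.2. The next narrowest were 7 and 15 bp wide, with 19 against 3 and 18 against 4 tags. Such narrow regions rested on few tags, and their ratios are hardly determined. The first region of X began at 11248 and the last ended at 17718670.

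Strength on X went with width and with company. When the regions of X were split by q-value into 4 groups with nearly the same number of regions, strongest first, the median width was 572, 415, 341 and 291 bp. The median number of ChIP tags was 180, 96, 67 and 50, and the median ratio was 4.55, 3.19, 2.59 and 2.15. Tags and ratio were recovered from the q-value that made the groups, so their fall is built into the split. More tags lower the q-value, so the fall in width is not independent of the split either. The share that had a neighbour within 1 kb was 42.9%, 32.7%, 31.2% and 28.0%, and the median gap to the nearer neighbour was 1.29, 1.88, 2.08 and 2.44 kb. The share in the middle part changed little, at 40.3%, 36.8%, 37.6% and 36.0%.

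Neighbouring regions on X formed chains, counted here as runs of regions with at most 1 kb between the end of one and the start of the next. Of the 1258 regions, 424 (33.7%, 95% interval 31.1% to 36.4%) stood in 181 chains, against 1470 (32.3%, 95% interval 31.0% to 33.7%) in 628 chains on the autosomes. The share on the single autosomes ran from 23.2% on I to 35.8% on V, so X lay within their range in spite of its higher density. Most chains of X were pairs (135), 37 held 3 regions, 5 held 4 and 4 held 5 or more. By position, 75 chains lay in the middle part of X, 61 in the right and 45 in the left. Members of chains were wider than lone regions, with a median of 437 bp against 382 bp, and had a higher ratio, 3.08 against 2.77. A q-value under 1e-10 was found in 37.0% of chain members and 26.7% of the lone regions, against 29.3% of the whole list. On the autosomes these shares were 38.7% and 24.4%. The shares in chains depend on the distance allowed, and X stayed within the range of the single autosomes at 500 bp (16.5%, against 11.0% to 17.6%) and at 2 kb (51.7%, against 37.6% to 51.8%).

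The longest chain of X ran from X 13348301 to 13356970. It held 7 regions in 8670 bp, with widths of 364 to 1140 bp, gaps of 300 to 921 bp and ratios of 2.40 to 3.90, and 5 of the 7 had a q-value under 1e-10. The second, X 11999485 to 12005215, held 6 regions with ratios of 1.77 to 3.49, 2 of them under that limit. No ratio in either chain was above 3.90, although 5 of the 7 regions of the longest were strong by q-value. The 5 regions of X 6517422 to 6523208 had ratios of 3.15 to 9.76, and the strongest was the region at 6518403 already named. In X 5475102 to 5480692, also of 5 regions, the ratios ran from 2.18 to 4.01 and only 1 passed the limit of 1e-10. A further 5 chains held 4 regions each. The shortest of these, X 10532101 to 10535116, spanned 3016 bp and again had 1 under the limit. In X 10477026 to 10481525, of 4500 bp and chosen after its values were seen, all 4 passed it, with ratios of 4.15 to 6.79. Of all 181 chains of X, 70 held no region under 1e-10 (38.7%) and 20 held only such regions (11.0%), against 34.4% and 11.3% of the chains on the autosomes.

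Gaps between neighbouring regions were compared next. The 25th percentile of the gap was 1.42 kb on X, within the autosome range of 1.34 to 2.38 kb. The median gap was 5.36 kb on X, against 6.70 kb on the autosomes together, and lay within the range of the single ones (5.19 kb on IV to 11.2 kb on I). The 75th percentile was 17.5 kb on X and lay below that of every autosome (19.9 to 36.2 kb). Short gaps were therefore about as common a share on X as elsewhere, and long gaps were rarer. Gaps of 200 to under 500 bp made up 8.75% of the gaps on X and 8.74% on the autosomes. Gaps of 50 to under 100 kb made up 5.01% on X and 7.58% on the autosomes, and gaps of 100 kb or more made up 0.716% on X and 2.05% on the autosomes.

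**Figure D4:**
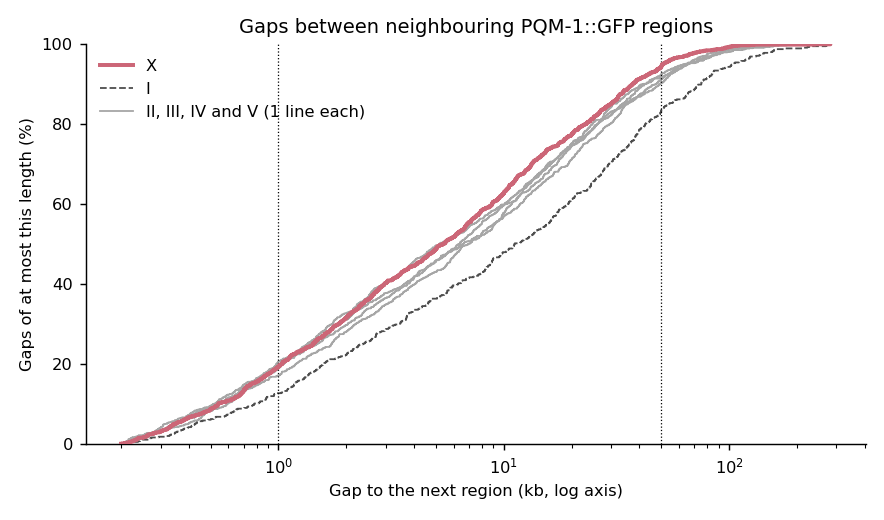
Cumulative share of gaps (vertical axis) up to a given length in kb (log axis) between neighbouring regions, 1 line per chromosome; dotted lines mark 1 kb and 50 kb. At short gaps the line of X runs among those of II to V (median 5.36 kb, against 5.19 kb on IV). At 50 kb and at 100 kb it lies above the autosomes, with a 75th percentile of 17.5 kb against 19.9 to 36.2 kb. Gaps of 239.7 and 281.7 kb on X exceed the longest of II to V (215.6 to 238.0 kb), so its line ends beyond theirs.

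Stretches of 50 kb or more without a listed region numbered 72 on X and took up 5.43 Mb, or 30.7% of its length. On the autosomes such stretches took up 39.9% on IV to 59.3% on I, so X had the lowest share of the 6 chromosomes. This held under stricter lists, with 53.2% of X against 61.0% to 84.6% of the autosomes when a q-value under 1e-05 was required, and 74.6% against 78.9% to 94.0% under 1e-10. X also had the fewest stretches of 100 kb or more, 9, against 11 to 31 on the autosomes. A lower share of empty length goes with a higher density of regions, so these values describe the same difference from the other side.

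The 2 longest empty stretches both lay near the left end. X 1627490 to 1909213 spanned 281.7 kb, close to the longest of the genome (283.5 kb, on I) and above the longest of the other autosomes (215.6 to 238.0 kb). X 59433 to 299112 spanned 239.7 kb. The next were X 6932498 to 7061289, of 128.8 kb, in the middle part, and X 1148812 to 1272525 and X 2698664 to 2809657, of 123.7 and 111.0 kb, again on the left. So 4 of the 5 longest empty stretches of X were in its left part. The stretch at 6932498 began just past the end of the densest bin of the chromosome. By the middle of each stretch, the left, middle and right part held 22, 23 and 27 stretches of 50 kb or more. Their number was thus alike in the parts, while their summed length was 2016 kb on the left, 1577 kb in the middle and 1840 kb on the right.

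In windows of 100 kb the same was seen. X held a median of 7 regions per window (n = 178 windows), against 5 on the autosomes (n = 827 windows) and 3 to 5 on single autosomes. Windows without any region numbered 4 on X (2.25%), all in the left part, against 45 on the autosomes (5.44%, and 3.27% to 13.2% on single ones). The variance of the count over its mean was 2.01 on X and 2.14 to 2.84 on the autosomes, so counts were least uneven on X. Windows of 15 or more regions numbered 8 on X (4.49%), against 22 on the autosomes (2.66%). The fullest window of X, 13300001 to 13400000, held 20 regions that covered 12.4 kb, and 11 of them had a q-value under 1e-10. It contained the longest chain and the strong broad region at 13310565, and also the last row of the list at 13306839. The densest window of the autosomes held 23, at IV 4400001 to 4500000. X 6600001 to 6700000 held 18 regions with 14 in chains, X 14700001 to 14800000 held 17 with 6 in chains, and X 11400001 to 11500000 held 16 with 6 in chains. X 6700001 to 6800000 held 15, with 13 in chains. In X 8000001 to 8100000, by contrast, 15 regions stood without a single neighbour within 1 kb, so a full window did not always contain chains. No gene was assigned to any of these regions here.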

How the data were processed

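ChIP-seq of PQM-1::GFP was analysed from 1 list of peaks for 2 ChIP and 2 input libraries. The value the authors deposited per peak is a q-value. Per the file headers, positions refer to WormBase WS180, and PeakSeq is given as the peak caller. The aligner, the read depth and the way replicates were combined were not given in the sources used here.

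Each q-value was read as p × tested regions / row number. The number 12873 matched 100% of 200 sampled peaks with a binomial lower tail of chance 0.5 (tolerance 1e-11 on the natural log). All 1258 peaks of X then had 1 pair of whole numbers, taken as ChIP and scaled control tags, and 5802 of 5803 in all. The recovery was tested on simulated data made with that formula, which does not test what the numbers mean.

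Lengths are the largest listed coordinate. Intervals (95%) are exact Clopper-Pearson for shares and ratios and binomial order statistics for medians. Peaks near each other are not independent, and counts per window varied more than counting error allows. The intervals of densities and their ratios are therefore too narrow, and the others may be. Python 3.11.15, numpy 2.4.6, scipy 1.17.1 and pandas 2.3.3 were used. Named regions of X are the 10 with the smallest q-value, the 5 of highest ratio (100 bp or more), the 5 widest, the 3 narrowest, the 3 with the largest q-value, the first and last, the 5 chains of most regions (the shorter first in a tie), and the 5 longest empty stretches and fullest windows, and others were chosen after their values were seen. Members and lists were chosen with earlier results of these data known.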

Additional observations from a re-analysis of the deposited data

How the results depend on the processing

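Of 40 alternatives, 27 stayed within the counting interval of the reported value (for the empty share, within a factor of 1.5), 13 moved and 0 changed direction. Only the ratios of density and position could change direction, since the other values are levels. Dropping peaks under 100 bp, other chromosome ends, covered bp and merging at 1 kb left the density and position ratios within their intervals. Leaving out chromosome I gave a ratio of X to autosomes of 1.20, and without the first 2 bins of X (chosen after seeing the data) the ratio of right to left was 1.07. With a q-value under 1e-05, 25.3% of the regions of X stood in chains, the empty share was 53.2%, the median width 479 bp, the median ratio 3.47 and the control 68.1 tags per kb. Under 1e-10 the median width was 541 bp and the ratio 4.38. Of all regions of X, 12.1% passed 1e-20. Chains took 16.5% at 500 bp and 51.7% at 2 kb, and stretches of 100 kb or more took 7.35% of X. These last settings change what is counted by construction. Filters on q-value also remove regions, and the tag ratios were recovered from that value, so those shifts are partly built in. For the others the cause was not tested. No paired analysis was possible because the deposited list gives 1 value per peak for both replicates, and for the same reason no replicate was left out. Read depth was not analysed here.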

Other observations

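Neighbouring regions on X were hardly alike in strength. Spearman's rho between the −log10 q of a region and that of the next was 0.040 over 1257 pairs on X and 0.038 over 4540 pairs on the autosomes. The counts of adjacent 100 kb windows on X had a rho of 0.047 (177 pairs, which share windows). Over the 18 bins of X, rho between the density and the median ratio was 0.32, and between the density and the median control per kb it was 0.39. These are descriptions over few or connected points.

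Remote regions held both strong and weak ones. On X, 68 regions had more than 20 kb to the nearer neighbour, and 16 of these (23.5%) had a q-value under 1e-10, against 78 of 432 (18.1%) on the autosomes, 30.2% of all regions of X and 29.3% of the whole list. The next regions were picked after looking at their values. The lowest ratio of X among regions of 100 bp or more, 1.45 (95% interval 1.098 to 1.92), was at X 9838093 to 9839014, with 129 ChIP against 89 scaled control tags. X 3007398 to 3007782 and X 7809253 to 7810081 each held 110 against 72 tags, a ratio of 1.53. The first of these also had the most control tags per kb among regions of X of 300 bp or more.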
